A study of Mus musculus with 21 samples.

Results

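The transcripts described here are 10 genes that act as readouts and brakes of ERK signalling, and they were measured in mouse liver and liver tumours. They are the dual-specificity phosphatase genes Dusp4, Dusp5 and Dusp6, the Sprouty genes Spry1, Spry2 and Spry4, the Sprouty-related gene Spred1, the ETS factor genes Etv4 and Etv5, and Phlda1. The members were all non-control probes whose gene name was 1 of these 10 symbols, which gave 13 of 39429 probes and 10 of 30450 gene names on the array. All 13 probes passed the filter on dim probes, none was saturated, and each gene was represented by its brightest probe.

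All mice had the C57BL/6J background. The wild-type (WT) livers came from 4 untreated mice with intact Trp53, and the knockout (KO) livers came from 4 untreated Trp53 knockout mice. The KO tumours were 6 tumours from 5 untreated Trp53 knockout mice, labelled HCC/CCC (hepatocellular and cholangiocellular carcinoma). The DEN tumours were 7 tumours from 5 mice with intact Trp53, labelled as hepatocellular carcinoma, induced by 1 agent, N-nitrosodiethylamine (DEN), a liver carcinogen injected intraperitoneally at 10 µg per g body weight on day 15. Which cells lost Trp53, how old the mice were at sampling and their sex are not stated in the labels, and there was no DEN-treated knockout group and no DEN-treated liver without tumour. Mice were identified by the number before the tumour number in each title. For the main results tumours of 1 mouse were averaged, so that n = 18 mice.

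Growth factor receptors activate ERK through RAS, RAF and MEK, and active ERK enters the nucleus and switches on a set of early transcripts. Many of these encode proteins that turn the pathway down again: DUSP phosphatases remove the activating phosphates from ERK, Sprouty proteins act between receptor and RAF, and SPRED1 brings the RAS inactivator neurofibromin to the membrane. ETV4 and ETV5 are ETS transcription factors of the PEA3 subfamily, whose transcripts are widely read as output of FGF and ERK signalling. In liver the pathway is known for its part in regeneration, and in DEN-induced tumours for frequent activating mutations of its RAS and RAF genes. These tumours were not genotyped in the data used here.

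Promoter sequences are shown for 4 genes on which the results below turn: Dusp6 and Etv5, which differed between the tumour types in opposite directions, and Spry1 and Spred1, the pair of members whose levels ran closest together over the mice. Each is the 250 bases before the transcription start from RefSeq (GRCm38.p6), 5′ to 3′ on the gene's own strand, with capitals marking a match to the ETS core CGGAAG on either strand. Promoter windows were searched for 6 of the 10 members (Dusp5, Dusp6, Spry1, Spry2, Spred1 and Etv5). Etv5 had a further window for another start, chr16:22438369-22438618 (minus strand), which was searched, held no match and is not shown. The windows shown are chr10:99262981-99263230 (plus strand), chr16:22439571-22439820 (minus strand), chr3:37639697-37639946 (plus strand) and chr2:117120821-117121070 (plus strand).
Dusp6: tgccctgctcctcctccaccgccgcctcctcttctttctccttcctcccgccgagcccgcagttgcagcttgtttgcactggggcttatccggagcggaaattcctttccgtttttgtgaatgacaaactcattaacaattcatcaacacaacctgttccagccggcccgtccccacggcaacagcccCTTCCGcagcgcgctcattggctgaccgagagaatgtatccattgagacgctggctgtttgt
Etv5: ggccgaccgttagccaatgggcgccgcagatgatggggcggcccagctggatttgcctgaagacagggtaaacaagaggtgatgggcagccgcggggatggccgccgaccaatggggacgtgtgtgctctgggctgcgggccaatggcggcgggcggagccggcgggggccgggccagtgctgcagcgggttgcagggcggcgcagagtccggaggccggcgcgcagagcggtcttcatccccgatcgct
Spry1: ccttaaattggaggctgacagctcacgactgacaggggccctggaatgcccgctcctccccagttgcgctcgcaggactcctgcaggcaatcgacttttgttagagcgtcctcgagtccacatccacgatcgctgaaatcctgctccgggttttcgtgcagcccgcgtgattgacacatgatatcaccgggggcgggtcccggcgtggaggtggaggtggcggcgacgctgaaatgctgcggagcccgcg
Spred1: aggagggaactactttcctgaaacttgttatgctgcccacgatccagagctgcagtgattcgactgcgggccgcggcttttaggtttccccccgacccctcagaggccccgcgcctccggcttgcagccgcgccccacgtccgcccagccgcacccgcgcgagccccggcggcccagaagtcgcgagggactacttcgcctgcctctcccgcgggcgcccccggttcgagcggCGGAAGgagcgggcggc

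The ETS core occurred in the windows of Dusp6 (62 bases before the start, minus strand) and Spred1 (17 bases before the start, plus strand), and in 13.6% of all 32851 promoter windows. The AP-1 motif TGANTCA, searched on both strands, was found in none of the members' windows and in 6.75% of all. The TGACG core of the cyclic AMP response element was found in Dusp5 alone among the 6, 55 bases before the start on the minus strand, and in 17.8% of all windows. Matches did not overlap. They describe letters only, and no binding was measured.

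Levels below are log2 processed signal minus the array's 75th percentile, so that 0 is the 75th percentile of that array and 1 unit is a change by a factor of 2. Differences are log2 fold changes ± SE from a limma fit of the 4 group means over 23703 genes, with Benjamini-Hochberg adjusted p-values and a threshold of 0.05. The tested probes of 9 members lie, on mm9, at chr8:35882045-35882104 (Dusp4), chr19:53615682-53615741 (Dusp5), chr10:98729985-98730044 (Dusp6), chr3:37543403-37543462 (Spry1), chr14:106291845-106291904 (Spry2), chr2:117005906-117005965 (Spred1), chr11:101631057-101631116 (Etv4), chr16:22381387-22381446 (Etv5) and chr10:110945310-110945369 (Phlda1); the position of the Spry4 probe is not given here. The exon or UTR each falls in was not determined here, because no mm9 annotation was used.

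The arrays differed in ways that bear on every comparison. Between 51 and 82.3% of probes were well above background per array. The slide with KO tumour arrays 4 to 6 had 75th percentiles of 2045 to 4258 intensity units, against 475.8 to 1357 on the others, and each slide held a single group. No other group shared the slide or the scan day of the WT livers, so a difference from WT liver cannot be told apart from that slide and day. Scan day 1 held KO livers, 3 KO tumours and 3 DEN tumours, and a value within that day is given for members called between these groups or where it changes a call. The Trp53 probe was lower in KO than in WT liver (-2.00 ± 0.31, adjusted p = 0.0013) and in KO than in DEN tumours (-2.06 ± 0.28, adjusted p = 2.2e-05). In KO tumours it was well above background on 5 of 6 arrays and 0.87 ± 0.30 higher than in KO liver (adjusted p = 0.022). Whether it lies in the deleted part was not determined. The 8 hepatocyte markers, as a log2 summed level, ran from 10.85 to 11.2 in WT liver, 11.27 to 11.51 in KO liver, 10.4 to 10.96 in DEN tumours and 8.24 to 9.5 in KO tumours. For the 8 bile duct markers the range was 0.82 to 1.8 in WT liver, 2.34 to 2.8 in KO liver, 4.07 to 5.54 in DEN tumours and 5.75 to 8 in KO tumours. In bulk RNA, fewer cells of a type and less RNA per cell cannot be told apart.

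Across the 10 genes the tumour types differed in pattern. In DEN tumours 8 members rose over WT liver and 0 fell, while 10.6% of all genes tested rose and 10.9% fell (21.5% in either direction). All 8 had every DEN tumour mouse above every WT liver mouse, as did 10.9% of all genes. The count of 8 became 3 (Spry1, Spred1 and Etv5) with normexp background correction and 75th percentile scaling and with slide as a random block. In KO tumours 4 rose over KO liver (Dusp4, Spry1, Etv4 and Etv5) and 2 fell (Dusp6 and Spry4), where 21.5% of all genes rose and 29.5% fell (51.0% in either direction). The median change of the members was 1.83 in DEN tumours, against 0.05 over all genes, and 0.59 in KO tumours, against -0.22 over all genes. The tumour change itself differed between the models for 6 members, 5 of them lower (Dusp5, Dusp6, Spry1, Spry4 and Spred1) and 1 higher (Etv4) in the knockout model. Dusp5 is counted here without a measured liver level, since it was well above background on no liver array. With slide as a random block only Dusp6 still differed, and with normexp and 75th percentile scaling Dusp6 and Etv4 did. Of all genes, 18.2% were lower and 12.7% higher by this test of the difference (30.9% in either direction). The 2 tumour changes share no mice. From liver to tumour, 8 of 8 hepatocyte markers were lower and 7 of 8 bile duct markers higher in KO tumours, against 1 lower hepatocyte marker and 3 higher and 1 lower bile duct markers in DEN tumours. Markers of macrophages (4 of 8), endothelium (2 of 8) and erythroid cells (2 of 4) were also higher in DEN tumours than in WT liver. So were 1 of 8 for stellate cells, 1 of 8 for T and NK cells and 1 of 6 for neutrophils. None of the 6 for B and plasma cells was higher, and 0 of any of these cell types were lower. The part of these markers in the members' changes was not tested.

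**Figure D1:**
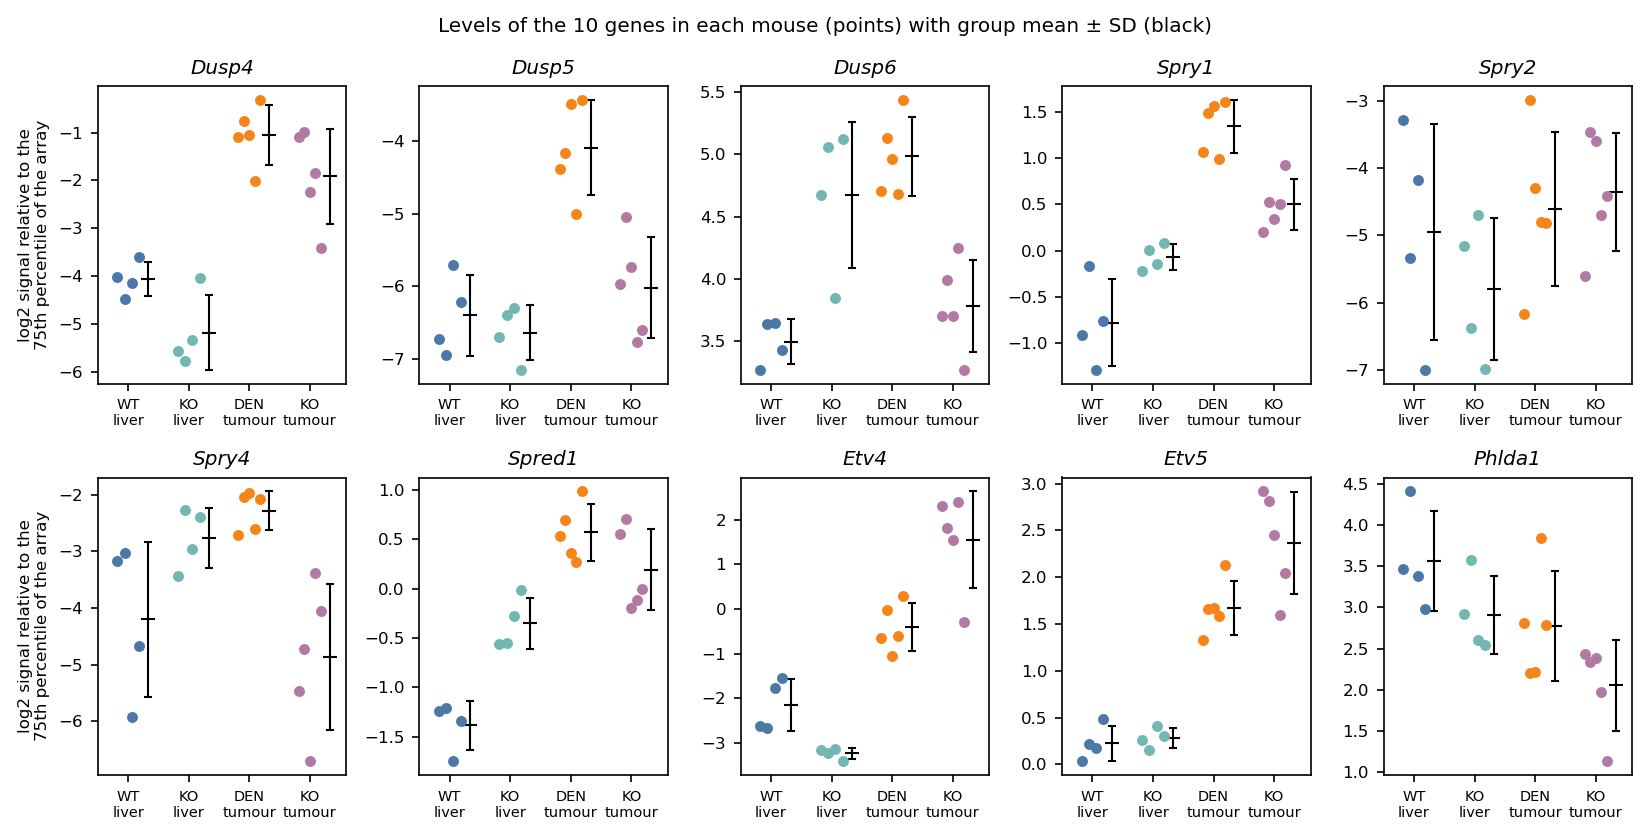
Log2 level of each of the 10 genes relative to the array's 75th percentile (vertical axis, scaled per gene) in WT liver (4 mice), KO liver (4), DEN tumour (5) and KO tumour (5); points are mice and black bars are mean ± SD. Spry1 and Dusp5 are highest in every DEN tumour mouse, whereas 4 of the 5 KO tumour mice stand above all others for Etv4.

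The phosphatases took 3 courses. Dusp4, which encodes a nuclear phosphatase of ERK and other MAP kinases, rose strongly in both tumour types. Its levels were -4.02, -4.48, -4.14 and -3.61 in WT livers and -1.10, -0.75, -1.05, -2.02 and -0.31 in DEN tumours. In KO livers they were -5.57, -5.78, -5.33 and -4.04, and in KO tumours -1.10, -0.99, -2.25, -1.84 and -3.41. Every tumour mouse lay above every liver mouse, and KO tumour mouse 5 was the lowest among the tumours. The rise was 3.02 ± 0.47 in DEN tumours (8.09-fold, adjusted p = 0.00029) and 3.26 ± 0.47 in KO tumours (9.58-fold, adjusted p = 2.4e-05). The difference between these rises was 0.24 with a 95% interval of -1.16 to 1.65 (adjusted p = 0.81), an interval that reaches past 1 log2 unit either way. Only 1 of 4 KO liver arrays had Dusp4 well above background, so the KO fold rests on mostly unmeasured liver levels. With normexp and 75th percentile scaling, both Dusp4 calls were lost (adjusted p = 0.17 in DEN and 0.064 in KO tumours), and with slide as a random block the DEN call was lost (adjusted p = 0.071). With normexp the KO rise was 1.39 under the 75th percentile and 1.38, still passing, under quantile scaling, and the DEN rise was 1.54 and 1.90, the latter still passing. Within scan day 1 the KO rise was 3.73 (adjusted p = 0.00066). From DEN to KO tumours the difference was -0.87 ± 0.44 (adjusted p = 0.10), and it passed with every tumour as its own sample (-1.08, adjusted p = 0.043).

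Dusp5, which encodes a nuclear phosphatase selective for ERK, was well above background on all 7 DEN tumour arrays, on 3 of 6 KO tumour arrays and on no liver array. The DEN tumour levels were -4.39, -4.16, -3.49, -5.00 and -3.43. The KO tumour levels were -5.97, -5.04, -5.73, -6.76 and -6.60, the highest of them just below the lowest DEN tumour. Against WT liver, where it was not well above background, Dusp5 was at least 1.97-fold higher in DEN tumours (adjusted p = 0.00051; the bound sets the mean of the DEN tumours against the lowest signal well above background on the WT arrays). This call was lost with normexp and the 75th percentile (adjusted p = 0.98) and with slide as a block (0.086). Its fitted difference in KO tumours over KO liver was 0.62 ± 0.39 (adjusted p = 0.19; 1.06 and 0.10 within scan day 1, 1.06 and 0.035 without the bright slide). Dusp5 fell by 1.93 ± 0.36 from DEN to KO tumours (adjusted p = 0.00033), but within scan day 1 the adjusted p was 0.12, and with scan day as a block it was 0.065, at -1.10, while normexp and quantile scaling kept the call at a smaller -0.36.

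Dusp6, which encodes the cytoplasmic phosphatase of ERK, went opposite ways in the 2 models. WT livers had 3.27, 3.64, 3.65 and 3.43 and DEN tumours 4.71, 5.13, 4.96, 4.68 and 5.44, with no overlap. KO livers had 4.67, 5.06, 3.85 and 5.12 and KO tumours 3.70, 3.99, 3.70, 4.25 and 3.27. KO liver was thus near the DEN tumours, and KO tumour near WT liver, and the ranges overlap within each of these pairs. Dusp6 rose by 1.49 ± 0.26 in DEN tumours (2.81-fold, adjusted p = 0.00074; 0.052 with normexp and the 75th percentile and 0.11 with slide as a block) and fell by 0.90 ± 0.26 in KO tumours (adjusted p = 0.0090). The tumour change differed between the models by -2.39 ± 0.37 (adjusted p = 0.00032), and this call held under all 10 other settings. KO liver exceeded WT liver by 1.18 ± 0.28 (adjusted p = 0.016), a call lost without KO liver mouse 2 (adjusted p = 0.060) or mouse 4 (0.056), with normexp and the 75th percentile (0.22) and with slide as a block (0.75). The fall from KO liver to KO tumour was lost with normexp and quantile scaling (-0.16, adjusted p = 0.58), with normexp and the 75th percentile (0.19), with slide as a block (0.13) and within scan day 1 (-0.88, adjusted p = 0.073). Between the tumours it fell by 1.21 ± 0.25 from DEN to KO (adjusted p = 0.00064), without overlap, with adjusted p = 0.096 under normexp and the 75th percentile and 0.053 within scan day 1.

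**Figure D2:**
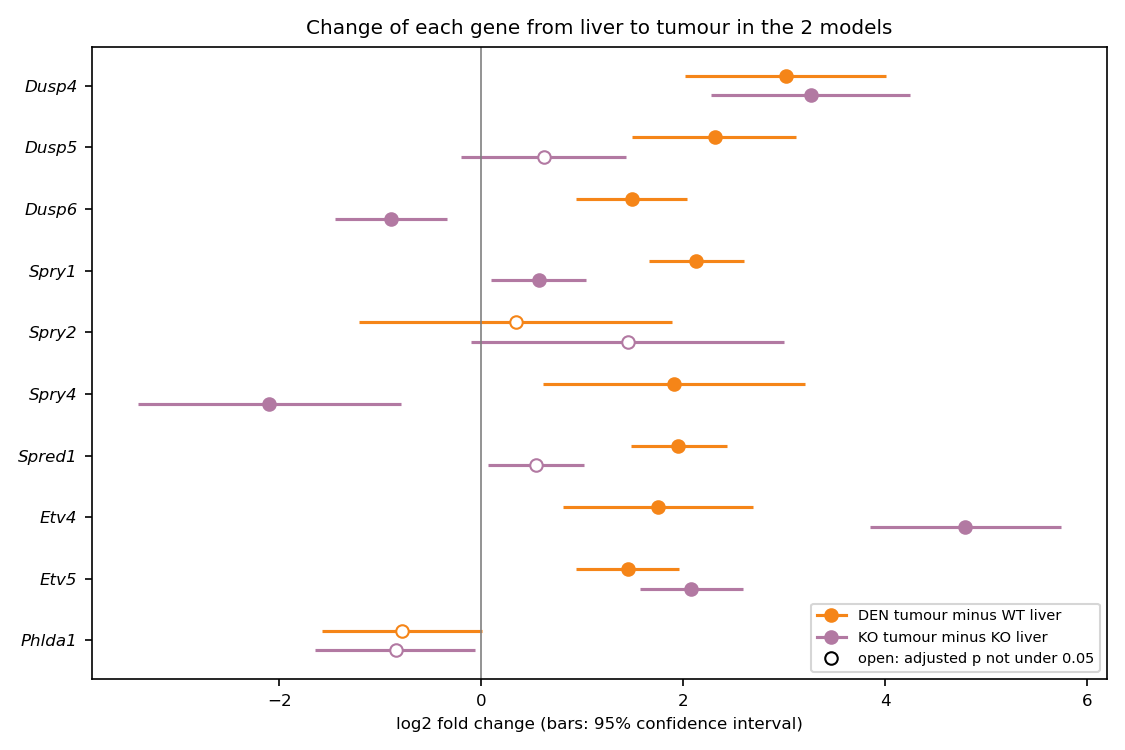
Log2 fold change from liver to tumour (horizontal axis) of each gene in the DEN model (DEN tumour minus WT liver) and the knockout model (KO tumour minus KO liver); bars are 95% confidence intervals from limma and open points have an adjusted p of 0.05 or more. Dusp6 and Spry4 lie on opposite sides of 0 in the 2 models, and Etv4 has its largest change in KO tumours, at 4.79.

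Of the Sprouty genes, whose products curb receptor signalling to RAS and RAF, Spry1 showed the most even rise. DEN tumours had 1.07, 1.49, 1.56, 0.99 and 1.61, and WT livers -0.91, -0.16, -1.29 and -0.76. KO tumours had 0.20, 0.53, 0.34, 0.50 and 0.93, and KO livers -0.22, 0.01, -0.14 and 0.08. From low to high the order was WT liver, KO liver, KO tumour and DEN tumour, and only the livers overlapped. Spry1 rose by 2.13 ± 0.22 in DEN tumours (4.37-fold, adjusted p = 7.7e-06), a call kept under all 10 other settings. In KO tumours it rose by 0.57 ± 0.22 (1.48-fold, adjusted p = 0.042). This call was lost under 5 of 12 settings, among them within scan day 1 (0.43, adjusted p = 0.069). Scan day as a block and the bright slide left out gave the same 0.43 from the same arrays. The call was also lost without any 1 of 8 mice: KO liver mice 1 to 4, KO tumour mice 2, 4 and 5, and WT liver mouse 4 (adjusted p = 0.05 to 0.1). From DEN to KO tumours Spry1 fell by 0.84 ± 0.21 (adjusted p = 0.0029; 0.066 with slide as a block), and the tumour change differed by -1.56 ± 0.32 (adjusted p = 0.0019).

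Spry4 was higher in DEN tumours and lower in KO tumours than in the matching livers. DEN tumours lay close together at -2.72, -2.05, -1.98, -2.60 and -2.07. KO tumours were lower and spread over 3.31 units, at -5.46, -4.72, -6.71, -3.39 and -4.05. WT livers had -3.17, -3.03, -5.92 and -4.67, and KO livers -3.43, -2.27, -2.96 and -2.40. Spry4 was not well above background in KO tumour mouse 3 (-6.71) and WT liver mouse 3 (-5.92). The spread of KO tumours and the differences from these groups therefore rest partly on unmeasured levels. No DEN tumour mouse overlapped the KO tumours or the WT livers, while 1 KO liver mouse reached into the KO tumour range. Spry4 fell by 2.10 ± 0.62 from KO liver to KO tumour (adjusted p = 0.0092) and by 2.58 ± 0.58 from DEN to KO tumour (adjusted p = 0.0013). The second fall kept its call under all 12 other settings (-3.35 to -1.02), and the first lost it only with slide as a block (adjusted p = 0.11); within scan day 1 it was -2.86 (adjusted p = 0.00064). The rise of 1.91 ± 0.62 in DEN tumours (adjusted p = 0.036) was lost without DEN mouse 2, 3 or 5 or WT mouse 3 or 4 (adjusted p = 0.067 to 0.13), with normexp and the 75th percentile (0.92) and with slide as a block (0.33). The difference of the tumour changes was -4.01 ± 0.87 (adjusted p = 0.0030); it was -1.76 (0.0012) with normexp and quantile scaling, -2.02 (0.064) with normexp and the 75th percentile, and -3.82 (0.089) with slide as a block.

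Spry2 was dim and its levels spread widely. All 6 KO tumour arrays and 6 of 7 DEN tumour arrays had it well above background, as did 2 of 4 from WT liver and 0 of 4 from KO liver. WT livers alone ranged from -7.00 to -3.28. No comparison passed the threshold: the difference was 0.34 ± 0.73 in DEN tumours (adjusted p = 0.80) and 1.45 ± 0.73 in KO tumours (adjusted p = 0.11), with 95% intervals of -1.21 to 1.89 and -0.10 to 3.

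Spred1, whose product inactivates RAS through neurofibromin, followed Spry1. WT livers had -1.24, -1.21, -1.75 and -1.34, and KO livers -0.56, -0.55, -0.28 and -0.01. DEN tumours had 0.53, 0.70, 0.36, 0.27 and 0.99, and KO tumours 0.55, 0.71, -0.19, -0.11 and 0.00. WT livers stood below all other mice, and KO tumours overlapped both KO livers and DEN tumours. It rose by 1.95 ± 0.23 in DEN tumours (3.87-fold, adjusted p = 1.9e-05), a call kept under all 10 other settings, and its difference in KO tumours was 0.54 ± 0.23 (adjusted p = 0.054). The latter passed under 4 of 12 other settings (adjusted p = 0.018 to 0.044), among them scan day as a block (0.71, adjusted p = 0.030). Leaving out the bright slide compared the same arrays and passed at the same 0.71 (adjusted p = 0.025). Scan day 1 alone also gave 0.71 and did not pass (adjusted p = 0.067). The difference passed as well without KO liver mouse 4 or KO tumour mouse 3 or 4 (adjusted p = 0.032 to 0.038). The tumour change differed by -1.41 ± 0.32 (adjusted p = 0.0037). Spred1 was 1.04 ± 0.24 higher in KO than WT liver (adjusted p = 0.015), a call lost without KO liver mouse 4 (0.051) or WT liver mouse 3 (0.063), with all probes averaged (0.081), with normexp and the 75th percentile (0.41) and with slide as a block (0.67). A second Spred1 probe had the same directions (1.51 in DEN and 0.43 in KO tumours over liver), while the remaining probe, well above background on 9 of 21 arrays, had -0.25 and -0.19.

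Etv4 was the member that rose most in KO tumours. KO livers had -3.17, -3.23, -3.14 and -3.42, and KO tumours 2.30, 1.82, 1.55, 2.39 and -0.29. WT livers had -2.62, -2.68, -1.77 and -1.56, and DEN tumours -0.65, -0.02, -1.05, -0.61 and 0.29. KO tumour mouse 5, for which 2 tumours were averaged, lay within the DEN range, and the other 4 KO tumour mice lay above it. Etv4 rose by 4.79 ± 0.45 in KO tumours (27.7-fold, adjusted p = 3.8e-07) and by 1.75 ± 0.45 in DEN tumours (3.36-fold, adjusted p = 0.010). The rise in KO tumours was kept under all 12 other settings (3.58 to 5.13). Scan day as a block, scan day 1 alone and the bright slide left out compared the same arrays here, and each gave 5.13. The rise in DEN tumours was instead lost with slide as a block and with normexp and the 75th percentile (adjusted p = 0.28 in each). KO tumours were 1.96 ± 0.42 higher than DEN tumours (adjusted p = 0.00093; 2.36 and adjusted p = 0.0018 with scan day as a block), but 0.063 with slide as a block. The tumour change differed by 3.04 ± 0.63 (adjusted p = 0.0023), lost with slide as a block (0.18). A second Etv4 probe had 5.32 in KO and 1.93 in DEN tumours.

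Etv5, the paralogue of Etv4, rose in both tumour types from an even liver level. WT livers had 0.03, 0.22, 0.17 and 0.48 and KO livers 0.26, 0.15, 0.41 and 0.30. DEN tumours had 1.33, 1.66, 1.67, 1.58 and 2.13, and KO tumours 2.92, 2.81, 2.45, 1.60 and 2.04. The 2 tumour groups overlapped each other and neither liver group. The rises were 1.45 ± 0.24 in DEN tumours (2.73-fold, adjusted p = 0.00051) and 2.08 ± 0.24 in KO tumours (4.23-fold, adjusted p = 3.1e-06), and both calls were kept under every other setting run, with 2.44 in KO tumours within scan day 1. KO tumours were 0.69 ± 0.23 higher than DEN tumours (adjusted p = 0.017), a call lost with slide as a block (0.13) and without KO tumour mouse 1 (0.05). The rises themselves differed by 0.63 with a 95% interval of -0.09 to 1.36 (adjusted p = 0.17; 0.99 and 0.0070 without the bright slide).

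Phlda1, a growth-factor-induced gene that encodes a pleckstrin-homology-like protein, did not pass in any comparison when tumours of 1 mouse were averaged. Its level ranged from 2.98 to 4.41 in WT livers, 2.54 to 3.57 in KO livers, 2.20 to 3.84 in DEN tumours and 1.13 to 2.43 in KO tumours. KO tumours lay below all KO livers, as they did for 24.6% of all genes, with a difference of -0.85 ± 0.38 (adjusted p = 0.068; 0.043 without DEN mouse 4). With every tumour as its own sample it passed as lower in KO tumours than in KO livers (-1.01, adjusted p = 0.042) and than in DEN tumours (-1.03, adjusted p = 0.015). In DEN tumours over WT liver the difference was -0.79 ± 0.38 (adjusted p = 0.15), and without DEN mouse 4 it was -1.05 (adjusted p = 0.044).

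Direct comparison of the tumours gave 2 members higher in KO than in DEN tumours (Etv4 and Etv5) and 4 lower (Dusp5, Dusp6, Spry1 and Spry4), where 19.8% of all genes were higher and 37.5% lower (57.3% in either direction). The 4 lower members did not overlap between the groups, as was so for 20.6% of all genes. The median over all genes in this comparison was -0.33, and it was -0.04 after normexp and quantile scaling, under which Dusp5, Dusp6, Spry1 and Spry4 still passed as lower and Etv4 and Etv5 as higher. Within scan day 1 the difference was -0.67 for Spry1, -2.89 for Spry4, 2.36 for Etv4 and 1.09 for Etv5, and these 4 passed. The hepatocyte markers were lower in KO than in DEN tumours (8 of 8) and the bile duct markers higher (6 of 8, 0 lower), as were 7 of 8 stellate and fibroblast markers, 5 of 6 B and plasma cell markers and 5 of 8 macrophage markers (2 lower). Endothelial markers (4 of 8) and erythroid markers (3 of 4) were lower, with 0 of either higher. Of T and NK cell markers 4 of 8 were higher and 3 lower, and of neutrophil markers 0 of 6 were higher and 1 lower. The part of all these markers in the members' differences was not tested. Bile duct markers Krt7 and Epcam were each well above background on 6 of 7 DEN tumour arrays. On KO tumour arrays they were so on 5 of 6 (Krt7) and 6 of 6 (Epcam). Their mean levels differed, at -4.72 in DEN and -0.78 in KO tumours for Krt7, and -4.68 and 2.06 for Epcam. In WT liver the means were -4.96 for Krt7 and -5.02 for Epcam. Cftr, another bile duct marker, was well above background on 2 of 7 DEN and 6 of 6 KO tumour arrays.

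**Figure D3:**
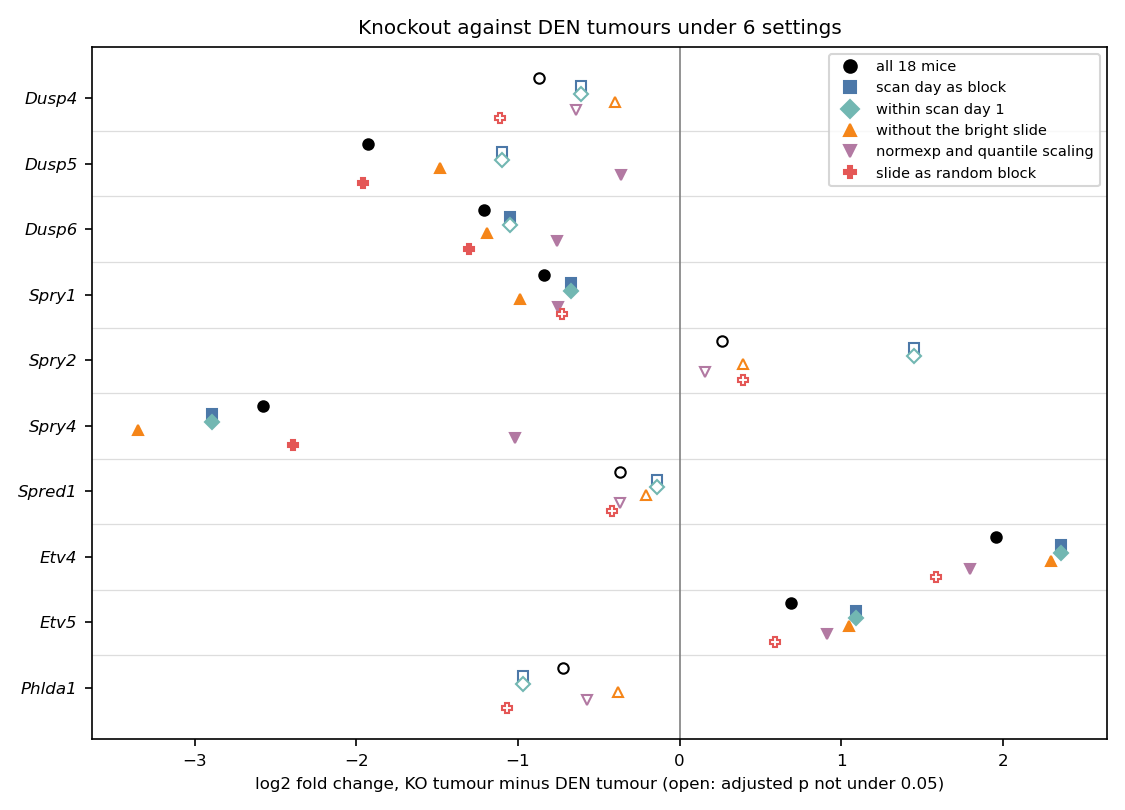
Log2 fold change of KO over DEN tumours (horizontal axis) for each gene under 6 settings: all 18 mice, scan day as a block, scan day 1 alone, without the bright slide, normexp with quantile scaling, and slide as a random block; open symbols have an adjusted p of 0.05 or more. Etv4 and Etv5 lie above 0 and Dusp5, Dusp6, Spry1 and Spry4 below 0 under all 6. Scan day as a block and scan day 1 alone give the same log2 fold changes, since no other day held both tumour types.

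Between livers without tumour, 2 members were higher in KO than in WT mice (Dusp6 and Spred1, both given above) and 0 lower, where 1.83% of all genes were higher and 6.67% lower (8.51% in either direction). Etv4 was lower in every KO liver than in every WT liver, as were 17.2% of all genes. The difference of -1.08 ± 0.47 did not pass (adjusted p = 0.18, and 0.034 without the bright slide). Slide and scan day cannot be told apart from genotype here.

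Tumours taken from 1 mouse allowed a look at spread within an animal. In KO tumour mouse 5, whose 2 tumours shared a slide, the pair differed by at most 0.49 in any of the 10 genes (Dusp4, -3.16 and -3.65). In DEN mouse 4, whose tumours were scanned on different days, Dusp5 had -4.28 and -5.72 and Spry2 -3.98 and -5.62. In DEN mouse 5, whose tumours were also scanned on different days, Dusp4 had -1.08 and 0.46. For these DEN mice a difference between tumours cannot be told apart from slide and day. Between mice, the median SD of the members was 0.51 in WT liver, 0.43 in KO liver, 0.44 in DEN tumours and 0.62 in KO tumours, against 0.36, 0.21, 0.42 and 0.60 over all genes.

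The rest of the pathway was read from 5 lists, and their counts are set against the shares of all genes given above. Among 15 cascade components from RAS to ERK, 0 rose and 0 fell in DEN tumours. In KO tumours 2 rose and 8 fell. Of the 2, Mapk3, which encodes ERK1, rose by 1.13, and the other is not reported here. Among the 8, the adjusted p was smallest for Sos1 (-1.21), Araf (-1.18) and Map2k2 (-1.32). Of 16 other inhibitors tested, 5 rose in DEN tumours: Dusp7 (1.45), Dusp9 (at least 1.88-fold), Spred2 (0.94), Rasa2 (1.10) and Cbl, which was not well above background in WT liver. In KO tumours 7 rose, led by Il17rd (2.29), a brake on FGF receptors, Rasa2 (1.44) and Dusp10 (1.59), and 4 fell, led by Errfi1 (-2.97), the EGF receptor inhibitor, and Nf1 (-1.20), which encodes neurofibromin; the others that fell were Lrig1 (-0.82) and Dusp1 (-1.75).

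Of 16 other ETS factors, 9 rose in KO tumours, led by Ehf (4.59), Elf3 (at least 18.7-fold, not well above background in KO liver) and Etv6 (2.09), and 4 fell, led by Gabpa (-1.64), Elk4 (-1.37) and Erf (-0.95). Elf3 (2.42) and Fli1 (1.35) rose and Elk4 (-1.37) fell in DEN tumours. Among 16 tested genes listed as other transcripts induced through ERK, 11 rose in DEN tumours, led by Phlda3 (3.11), Ier3 (4.41) and Plaur (3.11). In KO tumours 9 rose, led by Plaur (4.92), Emp1 (4.11) and Phlda3 (2.97), with 0 lower in either tumour type. Whether ERK induced these genes here, Phlda3 among them, was not tested. Only Lif showed a tumour change that differed between the models in this list (1.82 ± 0.60, adjusted p = 0.030).

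Receptors and ligands moved in both directions, 5 higher and 4 lower of 21 in DEN tumours and 5 and 5 in KO tumours. Met, the hepatocyte growth factor receptor, rose by 1.98 ± 0.32 in DEN tumours (adjusted p = 0.00039) and fell by 1.64 ± 0.32 in KO tumours (adjusted p = 0.00040), a difference of -3.62 ± 0.45 between the models (adjusted p = 6.7e-05). Hbegf (2.63) and Fgfr2 (1.28) led the rises in DEN tumours with Met, and Egfr (-1.42), Fgfr3 (-1.40) and Fgf9 (-2.28) the falls. In KO tumours Erbb2 (3.28), Hbegf (2.06) and Fgfr1 (3.47) led the rises, and Fgf1 (-3.30), Erbb3 (-1.61) and Met the falls. Between the tumours, only counts are given: KO tumours were higher for 4 and lower for 5 cascade genes, higher for 4 and lower for 3 other inhibitors, higher for 6 and lower for 2 other ETS factors, higher for 6 and lower for 3 other ERK transcripts, and higher for 8 and lower for 7 receptors and ligands.

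**Figure D4:**
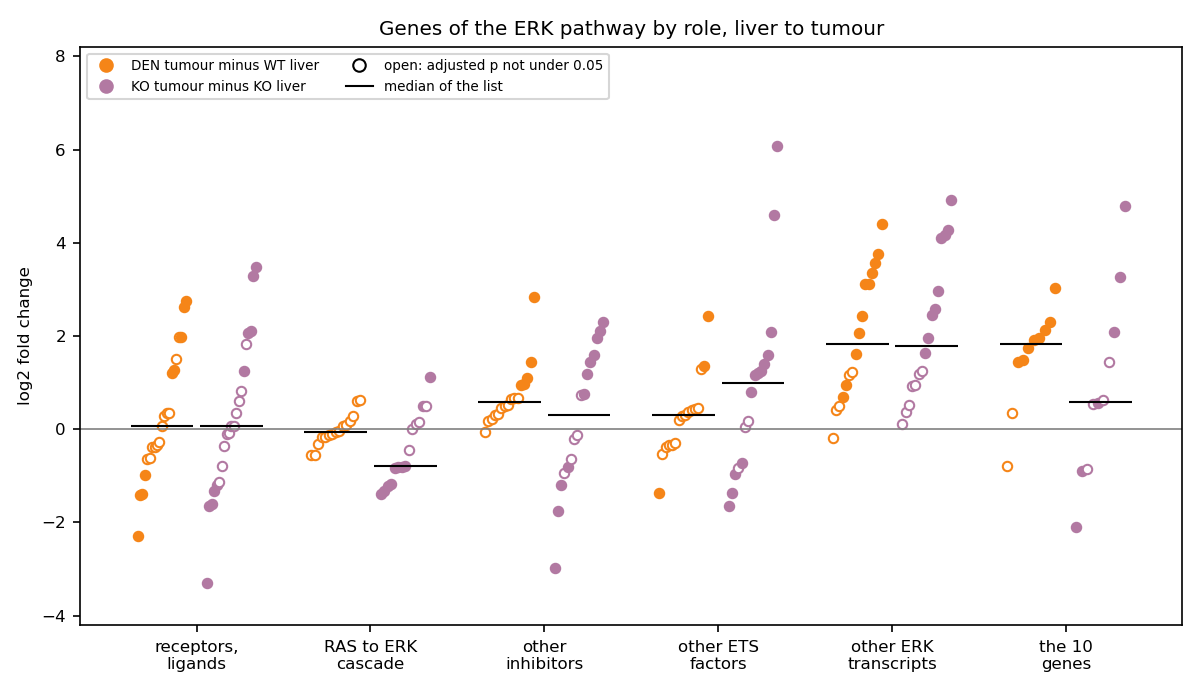
Log2 fold change from liver to tumour (vertical axis) of every tested gene in 5 lists of the ERK pathway and of the 10 members, in the DEN model and the knockout model; points are genes, black lines are list medians and open points have an adjusted p of 0.05 or more. The other ERK transcripts have medians of 1.83 and 1.79 in the 2 models, whereas those of the 10 members are 1.83 and 0.59.

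Genes with the most similar pattern over the 18 mice were found by the root mean square (RMS) difference of centred log2 levels, as a description without a test. Etv5 ran closest to Tyro3 and Gm5637 (0.25 each), and Etv4 to 2610524H06Rik (0.57) and Tmem130 (0.58). Spred1 ran closest to Dbndd2 (0.30) and Mthfd2l (0.32), Spry1 to Vcpkmt (0.36) and Acsl4 (0.37), and Spry4 to Ralgps1 (0.52) and Igsf9 (0.57). Dusp4 ran closest to Abhd2 (0.58) and Myo7b (0.59), and Dusp6 to BB558042 (0.30) and Pxylp1 (0.40). Dusp5 ran closest to BC057675 (0.39), Spry2 to Vmn2r111 (0.66) and Phlda1, among named genes, to Atg2a (0.41). Among the members themselves the closest pair was Spred1 and Spry1 (0.39) and the farthest Etv4 and Spry4 (2.79).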

How the data were processed

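RNA from 21 samples was hybridised, 1 sample per array, to one-colour Agilent mouse arrays. The deposited scanner files hold a background-corrected processed intensity per spot, made by the authors in Agilent Feature Extraction 10.7.3.1, per the file headers. The authors also deposited a table of log2 values; its columns, with medians from -0.568 to 0.296, matched the arrays after 75th percentile scaling and centring of each probe (lowest correlation 0.9997), with the centring inferred, not stated. Outlier and control spots were left out, log2 intensity was scaled to each array's 75th percentile, spots of 1 probe were averaged, and probes well above background on at least 4 arrays were kept, with the brightest per gene. Tumours of 1 mouse were averaged, and 4 group means were fitted with limma 3.58.1 in R 4.3.3 (lmFit, eBayes; Benjamini-Hochberg over 23703 genes). The code was tested on simulated data. Nothing in the labels states that samples were prepared independently beyond their coming from separate mice, and the number of arrays limits precision.

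Bounds for genes not well above background in a group use the mean over that group's arrays of the lowest signal well above background, or the probe's own where higher. Alternatives were 2 normexp corrections (offset 50), another scaling, 2 filters, probe averages, single tumours, the authors' table, slide and scan day as blocks, scan day 1 alone, the bright slide left out, and each mouse left out. The fit with slide as a block took all 21 arrays as samples, 2 tumours of 1 mouse included. With scan day as a block, DEN mice 4 and 5 entered on 2 days each. Scan day as a block and scan day 1 alone gave the same log2 fold changes in KO tumours over KO liver and over DEN tumours. For KO tumours over KO liver, leaving out the bright slide gave these too. Counts of settings that kept or lost a call therefore repeat some estimates. Promoters were searched in the 250 bases before the start and not, as first planned, also in the 50 after it. The members, gene lists and tests were chosen with earlier results of these data known. Named are all members and, per list and tumour-to-liver comparison, every gene past the threshold where there are at most 6, otherwise the 3 with the smallest adjusted p in each direction; 1 listed gene is not reported here. Among markers of other cells, from KO liver to KO tumour, 6 of 8 for stellate cells were higher and 0 lower, 1 of 8 for endothelium higher and 3 lower, 5 of 8 for macrophages higher and 3 lower, 5 of 8 for T and NK cells higher and 1 lower, 2 of 6 for B and plasma cells higher and 0 lower, 1 of 6 for neutrophils higher and 1 lower, and 0 of 4 for erythroid cells higher and 2 lower.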

Additional observations from a re-analysis of the deposited data

Results flagged for a closer look

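The change from liver to tumour differed between the knockout and the DEN model for 6 of the 10 members by the test of the difference itself (limma, adjusted p under 0.05; KO tumour minus KO liver, less DEN tumour minus WT liver, on the log2 scale). The difference was -1.69 for Dusp5, -2.39 for Dusp6, -1.56 for Spry1, -4.01 for Spry4, -1.41 for Spred1 and 3.04 for Etv4. For Dusp5 both liver groups were not well above background, so its value has no measured liver level on either side. With slide as a random block the adjusted p was 0.31 for Dusp5, 0.12 for Spry1, 0.089 for Spry4, 0.12 for Spred1 and 0.18 for Etv4, and with normexp and the 75th percentile it was 0.31 for Dusp5, 0.10 for Spry1, 0.064 for Spry4 and 0.20 for Spred1. For Dusp5 it was also 0.15 with normexp and quantile scaling and 0.073 without the bright slide, and for Spred1 0.053 with all probes averaged. WT livers had a slide and scan day of their own, which this difference contains and cannot be told apart from. No member had a mouse apart from its group by Dixon's criterion among 40 checks.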

How the results depend on the processing

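None of 1440 recomputed member values reversed a called direction. Many of them could not, since leaving out a mouse of a group outside a comparison leaves its log2 fold change as it was. Some values called in neither fit did change sign. For example, Spry2 in DEN tumours over WT liver went from 0.34 to -0.02 with normexp and quantile scaling. No paired analysis was possible because no number or label ties a mouse of one group to a mouse of another. A fit with scan day as a block could not be made for comparisons with WT liver, which had a day of its own.

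With normexp and the 75th percentile, genes called went from 12096 to 5799 (KO tumour over KO liver), 5093 to 665 (DEN tumour over WT liver) and 2016 to 142 (KO over WT liver). Members higher went to 2, 3 and 0, members lower in KO tumours over KO liver to 1, and members with a lower tumour change in the knockout model to 1. With slide as a random block (correlation 0.382), genes called were 6685, 422 and 11, members lower in KO tumours over KO liver 0, members higher in DEN tumours 3, in KO over DEN tumours 0 and in KO over WT liver 0, and members with a differing tumour change 1 lower and 0 higher. With normexp and quantile scaling 1 member was lower in KO tumours over KO liver, and within scan day 1 it was 1, with 2 lower in KO than DEN tumours. Averaging a gene's probes left 1 member higher in KO than WT liver. Without the bright slide, KO against WT liver had 3223 genes called and 1 member lower, and 2 members had a higher tumour change. The cause was not tested.

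Leaving out each mouse gave, for KO against WT liver, 660 to 2392 genes called, 0 to 3 members higher and 0 to 1 lower; for KO over DEN tumours 1 to 2 higher; for DEN tumours over WT liver 0 to 1 lower; and for the tumour change 1 to 2 higher. The Dusp5 difference of tumour changes lost its call without DEN mouse 5, KO liver mouse 2 or 3, or WT liver mouse 1 or 2 (adjusted p = 0.05 to 0.061). Of called genes, the share lower was 65.4% (KO over DEN tumours), 78.5% (KO over WT liver), 50.9% (DEN tumours over WT liver) and 59% (difference). With normexp and quantile scaling it was 52.9, 65.5, 52.1 and 48.4%, and with normexp and the 75th percentile 84.6, 55.6, 36.8 and 67.3%.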
